A study of Mus musculus with 15 samples.

Results

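The genes described here are 33 mouse genes that mark T cells, B cells and cytotoxic lymphocytes, chosen by name from what each is known to do, with earlier results of these data known. A gene was measured where an entry of the array table was annotated with exactly 1 symbol equal to its name, and 31 of the 33 were, among 22180 genes measured in that way. Cd247 (the CD3 zeta chain) and Lck (the kinase of CD4 and CD8) had no such entry and were not analysed here. The 31 measured genes comprised 6 of the T cell receptor complex and its signalling, 12 other T cell genes, 4 cytotoxic granule genes, 7 B cell genes and 2 immunoglobulin kappa variable segments. None of them had a second entry.

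Whole kidneys came from mice with a PRCC-TFE3 knock-in at Rosa26 behind a loxP-flanked stop cassette, crossed to KSP-Cre, a Cre recombinase transgene driven by the promoter of a tubule-epithelial cadherin. PRCC-TFE3 is a fusion transcription factor of a human kidney cancer. At 4 months of age 4 Cre- mice (without the transgene) and 4 Cre+ mice were profiled, and at 7 months of age 3 Cre- mice and 4 Cre+ mice, with 1 Affymetrix Mouse Gene 2.0 ST array per mouse. All 4 groups carried the knock-in, and no group carried KSP-Cre without it, so the effect of the transgene and that of the fusion cannot be told apart. KSP-Cre acts in tubule epithelium, so the lymphocytes whose genes are measured here are not cells in which it is known to act.

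The values are log2 signals normalised by RMA (a background correction, normalisation between arrays and summary over probes), and a difference of 1 is a doubling of signal. Signals of different probe sets have no common scale, so changes are taken within a gene across arrays, and the brightness of 1 gene is not ranked against that of another. Array medians lay between 4.40 and 4.55, and the proximal tubule markers, which check the tissue, had a mean signal between 9.31 and 11.01 in each array. Tfe3 was higher in Cre+ kidneys by 0.03 on the log2 scale at 4 months and by 0.22 at 7 months, and Prcc differed by 0.09 and -0.25. None of these 4 differences passed the threshold, and it is not known here which part of the fusion, if any, these probes read. The labels do not give sex. Y-linked signal was high in 8 arrays and low in 7, with both kinds in each group.

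T cells recognise antigen through a receptor whose signal passes inward through the CD3 chains, the kinases LCK and ZAP70 and the adaptor LAT. B cells use a surface immunoglobulin that signals through CD79A and CD79B, and plasma cells secrete immunoglobulin. Cytotoxic T cells and natural killer cells kill through perforin and granzymes. A healthy kidney holds few lymphocytes, and they gather in the interstitium in chronic injury and around tumours. In a whole-kidney sample, a difference in the number of such cells and a difference in RNA per cell cannot be told apart.

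Many of these genes gave dim signals. The table holds no detection calls, so the group means of 1394 olfactory and vomeronasal receptor genes, a class not known to be expressed as a whole in kidney, were used to describe a dim range, whose upper end was set at their 95th percentile. It is a rough guide to where a signal may be background, since probe sets differ in their own background. At 4 months that level was 4.16 in Cre- kidneys and 4.22 in Cre+ kidneys, and at 7 months 4.21 and 4.06. Of the 31 lymphocyte genes, 16 and 11 had a group mean within the dim range at 4 months, and 15 and 5 at 7 months. Ctla4, Cd27, Gzma, Gzmb and Pax5 were within it in all 4 groups. Cd3d, Il7r, Foxp3 and Cd79a were within it in both Cre- groups and above it in both Cre+ groups, so the changes given for them against Cre- kidneys may be understated. Cd2, Ms4a1, Cr2, Cd28 and Zap70 were within it in every group but 7-month Cre+ kidneys, and Cd3g in 7-month Cre- kidneys only. The 7-month changes of these genes may be understated as well. The level was lowest in 7-month Cre+ kidneys. There Zap70 (4.15), Cd28 (4.19) and Cr2 (4.20) were above it but below the 7-month Cre- level of 4.21. The count of 5 in that group thus depends on the level used. At the 99th percentile of the receptor genes, 21 of the 31 would be within the range in 7-month Cre+ kidneys and 29 in each Cre- group.

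In 7-month Cre+ kidneys 17 of the 31 genes were higher than in Cre- kidneys and none was lower, at a Benjamini-Hochberg adjusted p under 0.05 in limma over all 22180 genes. Of all genes, 11.7% were higher and 10.8% lower in this comparison. The 17 were 5 genes of the T cell receptor complex and signalling, 6 other T cell genes, 4 B cell genes and both kappa segments, with no cytotoxic granule gene among them. The median log2 change of the 31 was 0.47, against -0.04 over all genes. In 19 of the 31, every Cre+ array lay above every Cre- array, an order found in 14.0% of all genes. The share of all genes called higher among those called depended on scaling, at 52.0% as deposited and 39.3% with each array centred on its median, and 15 of the 17 calls were kept with that centring. Those of Cd8b1 and Skap1 were lost.

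**Figure D1:**
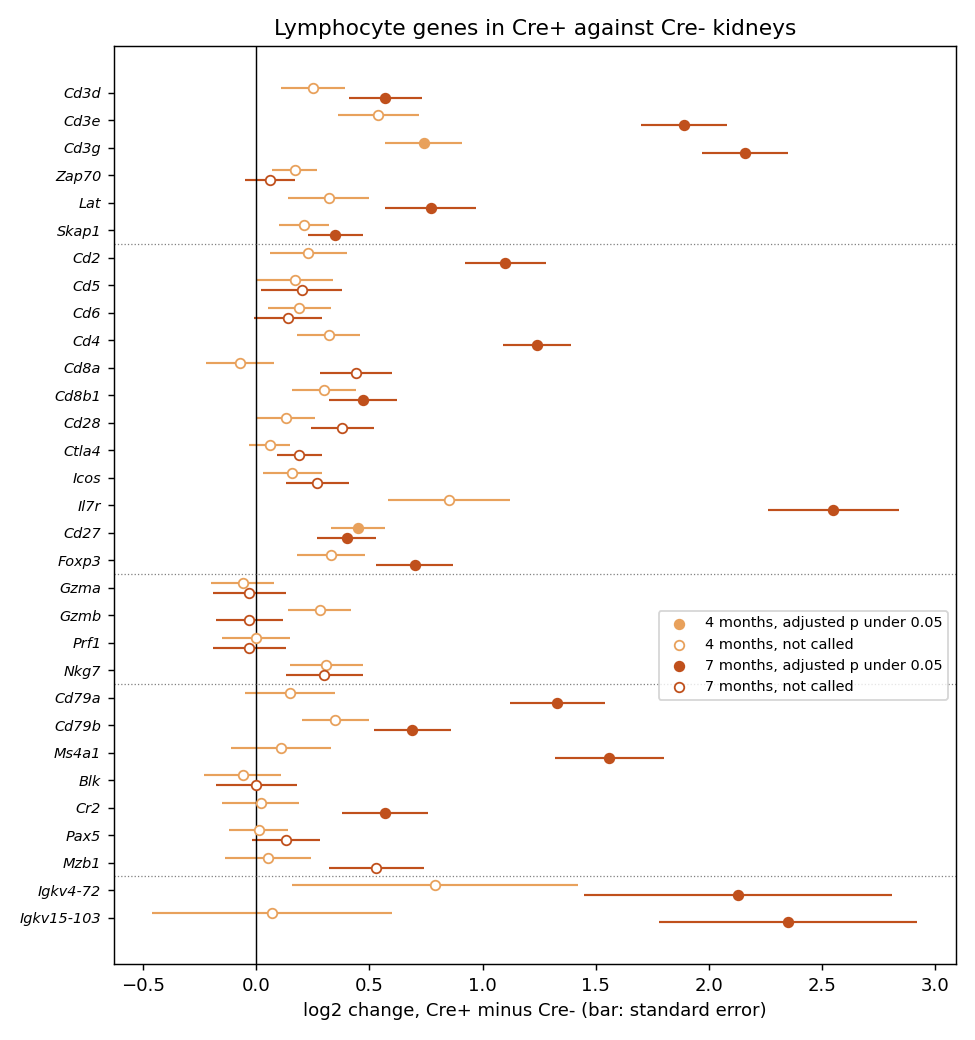
Log2 change of each of the 31 genes between Cre+ and Cre- kidneys at 4 months (pale) and 7 months (dark), with bars of 1 standard error and filled points where the adjusted p was under 0.05. Il7r, Cd3g, Cd3e and the 2 kappa segments lie farthest to the right at 7 months. Of the 4 granule genes, none called, Gzma and Prf1 lie near 0 at both ages. Nkg7 lies at 0.31 and 0.30, and Gzmb at 0.28 at 4 months and -0.03 at 7 months.

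At 4 months only 2 of the 31 were called, both higher, against 2.73% of all genes higher and 0.803% lower. They were Cd3g and Cd27, and 8 of the 31 had an unadjusted p under 0.05, as did 16.3% of all genes. The median log2 change of the 31 was 0.19, against 0.05 over all genes. Every Cre+ array lay above every Cre- array in 4 of the 31, namely Cd3g, Cd4, Nkg7 and Cd79b, and in 6.31% of all genes. The share of higher calls over all genes was 77.3% as deposited, 67.5% after quantile normalisation and 49.3% after median centring, and under either rescaling Cd3g kept its call and Cd27 lost it. Both calls were also lost without Cre- replicate 1 or 3 or Cre+ replicate 2, 3 or 4 of the 4-month mice, and without Cre+ replicate 1 there were 3, with Cd3e added (0.71, adjusted p = 0.018).

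The T cell receptor complex gave some of the largest rises. Cd3g, which encodes the CD3 gamma chain, had signals of 4.24, 4.27, 4.31 and 4.26 in 4-month Cre- kidneys and 4.48, 5.16, 5.21 and 5.16 in Cre+ kidneys. At 7 months they were 3.84, 4.30 and 4.33 in Cre- and 6.0, 6.16, 6.37 and 6.72 in Cre+ kidneys. The groups did not overlap at either age, and 1 Cre+ mouse of the 4-month group, replicate 1, lay near the controls. The change was 0.74 (SE 0.17, 1.66-fold, adjusted p = 0.022) at 4 months and 2.16 (SE 0.19, 4.46-fold, adjusted p = 3.7e-07) at 7 months. With 1 array left out, the adjusted p at 4 months ranged from 0.0018 to 0.082.

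Cd3e, the CD3 epsilon chain, had signals of 5.18, 5.25, 5.03 and 5.45 in 4-month Cre- kidneys and 5.28, 6.19, 6.11 and 5.50 in Cre+ kidneys. At 7 months the Cre- kidneys gave 4.68, 4.64 and 4.72 and the Cre+ kidneys 6.50, 6.29, 6.81 and 6.70. At 4 months the groups overlapped, with Cre+ replicates 2, 3 and 4 above every control and replicate 1 among them, and at 7 months they were far apart. Its change was 0.54 (SE 0.18, adjusted p = 0.11) at 4 months and 1.89 (SE 0.19, 3.72-fold, adjusted p = 1.8e-06) at 7 months. Cd3d, the CD3 delta chain, was at 3.81, 3.78 and 4.01 in 7-month Cre- and 4.23, 4.50, 4.29 and 4.71 in Cre+ kidneys, a change of 0.57 (SE 0.16, adjusted p = 0.014). Its call was lost without 7-month Cre- replicate 2, at an adjusted p of 0.06.

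The signalling genes downstream of CD3 had smaller changes than Cd3g and Cd3e. Lat, the adaptor that ZAP70 phosphorylates, was at 4.96, 5.12 and 5.60 in 7-month Cre- and 5.75, 6.01, 5.94 and 6.29 in Cre+ kidneys. The groups did not overlap, and the change was 0.77 (SE 0.20, adjusted p = 0.0079). Skap1, an adaptor that links the receptor to integrins, rose by 0.35 (SE 0.12, adjusted p = 0.047), but 9 of the 15 fits without 1 array lost that call, with an adjusted p up to 0.16 (without Cre- replicate 1 or 3 or Cre+ replicate 1 of the 4-month mice, or any 7-month array other than Cre+ replicate 3). Zap70 is the kinase recruited to the phosphorylated CD3 chains. Its changes were 0.17 (SE 0.10) at 4 months and 0.06 (SE 0.11, adjusted p = 0.75) at 7 months. It lay within the dim range in every group but 7-month Cre+ kidneys. Its mean there was 4.15, above the level of that group (4.06) but below that of 7-month Cre- kidneys (4.21).

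Among the T cell surface genes, Il7r changed most. It encodes the receptor for interleukin-7, on which naive and memory T cells depend for survival. Its signals were 3.51, 3.35, 3.88 and 3.26 in 4-month Cre- and 3.88, 4.52, 4.83 and 4.18 in Cre+ kidneys, and 3.00, 3.46 and 4.04 in 7-month Cre- and 5.50, 5.71, 6.23 and 6.78 in Cre+ kidneys. The older Cre+ kidneys stood above all other arrays, while at 4 months 1 Cre+ array, replicate 1, lay level with the highest control. The change was 0.85 (SE 0.27, adjusted p = 0.10) at 4 months and 2.55 (SE 0.29, 5.86-fold, adjusted p = 7.3e-06) at 7 months.

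Cd4, the co-receptor of helper and regulatory T cells, was at 4.50, 4.58, 4.58 and 4.77 in 4-month Cre- and 4.81, 4.97, 4.84 and 5.07 in Cre+ kidneys. At 7 months it was at 4.50, 4.25 and 4.53 in Cre- and 5.25, 5.54, 5.85 and 6.04 in Cre+ kidneys. The Cre+ arrays were above the Cre- arrays at both ages, with a change of 0.32 (SE 0.14, adjusted p = 0.28) at 4 months and 1.24 (SE 0.15, 2.37-fold, adjusted p = 1.5e-05) at 7 months. Cd4 is not confined to T cells, since some dendritic cells express it.

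Cd8a and Cd8b1 encode the chains of the co-receptor of cytotoxic T cells. Cd8a was at 4.33, 3.98 and 4.43 in 7-month Cre- and 4.56, 4.67, 4.56 and 4.97 in Cre+ kidneys. These groups did not overlap, yet the change of 0.44 (SE 0.16, adjusted p = 0.06) was not called, but was, at an adjusted p of 0.04 to 0.05, without 4-month Cre- replicate 2, 4-month Cre+ replicate 2 or 7-month Cre- replicate 3. Cd8b1 was at 4.52, 4.33 and 4.70 in 7-month Cre- and 4.89, 4.84, 5.14 and 5.09 in Cre+ kidneys, a change of 0.47 (SE 0.15, 1.39-fold, adjusted p = 0.03). That call was lost without 7-month Cre- replicate 1 or 2 or Cre+ replicate 3 or 4, with an adjusted p up to 0.15. It was also lost with quantile normalisation, median centring and the plain linear model, and in arrays of high Y-linked signal (adjusted p = 0.31 in limma). The log2 change of Cd4 at 7 months was thus more than that of either CD8 chain; the difference between genes was not tested.

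Cd2, an adhesion molecule of lymphocytes, was at 3.62, 3.46 and 3.93 in 7-month Cre- and 4.54, 4.49, 4.92 and 5.12 in Cre+ kidneys. All Cre+ arrays were above all controls, by 1.10 on average (SE 0.18, 2.14-fold, adjusted p = 0.00028). Foxp3, the transcription factor of regulatory T cells, was at 4.19, 4.26 and 3.82 in 7-month Cre- and 4.66, 5.01, 4.49 and 5.0 in Cre+ kidneys. Here too the groups were apart, and the change was 0.70 (SE 0.17, 1.63-fold, adjusted p = 0.0049).

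Cd27, a costimulatory receptor of the tumour necrosis factor receptor family, was the second gene called at 4 months. It was at 3.58, 3.53, 3.36 and 3.40 in 4-month Cre- and 3.57, 3.99, 4.03 and 4.08 in Cre+ kidneys, a change of 0.45 (SE 0.12, adjusted p = 0.043), and Cre+ replicate 1 lay among the controls. At 7 months its change was 0.40 (SE 0.13, adjusted p = 0.03). With 1 array left out, the 4-month call was lost in 12 of 15 fits (adjusted p up to 0.14; it was kept without 4-month Cre+ replicate 1, 7-month Cre- replicate 3 or 7-month Cre+ replicate 2). The 7-month call was lost in 6 of 15, without any 7-month Cre- array or Cre+ replicate 1, 3 or 4, with an adjusted p up to 0.092.

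Of the T cell surface genes, 5 more were not called at either age. Their changes at 7 months were 0.38 (SE 0.14) for the costimulatory receptor gene Cd28, 0.27 (SE 0.14) for the inducible costimulator Icos, and 0.20 (SE 0.18) and 0.14 (SE 0.15) for Cd5 and Cd6, which dampen receptor signals. Ctla4, the inhibitory counterpart of CD28, changed by 0.19 (SE 0.10) from a signal within the dim range. Every 7-month Cre+ array was above every Cre- array for Cd28 and Ctla4. Cd28 was called without 4-month Cre+ replicate 3 or 4 or 7-month Cre- replicate 2, at an adjusted p of 0.037 to 0.049.

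**Figure D2:**
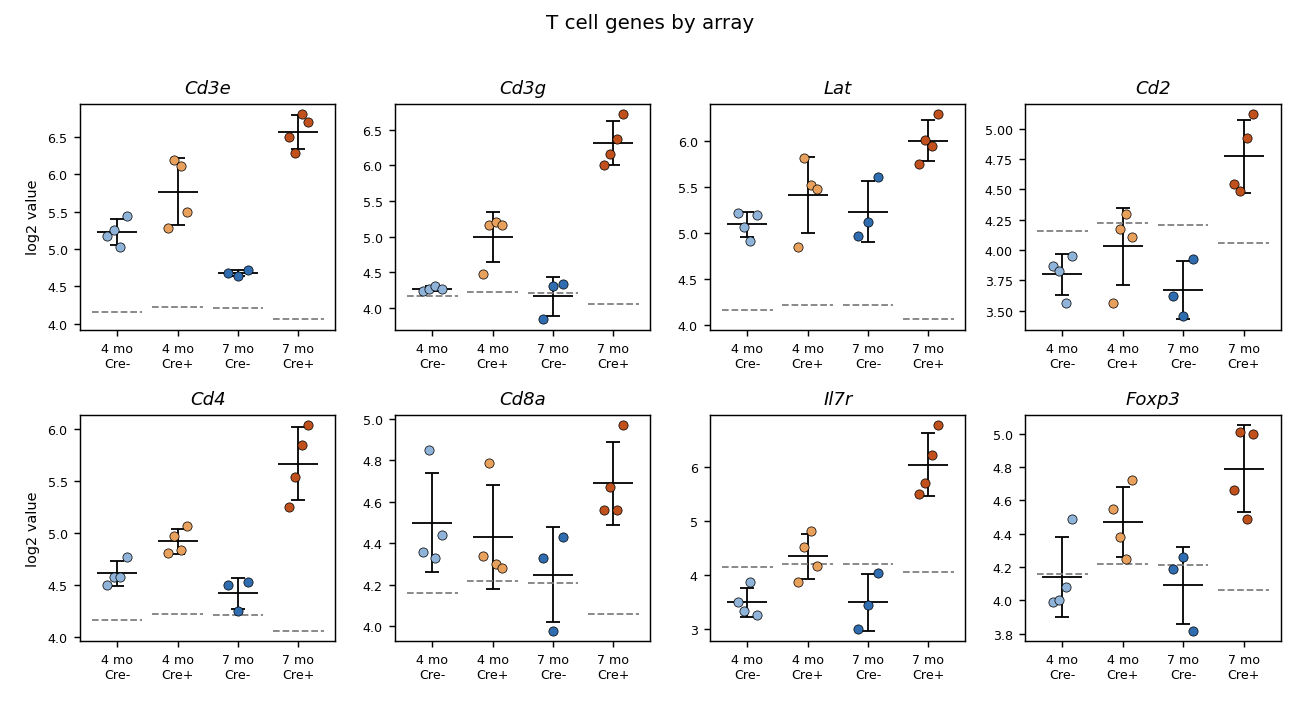
Log2 signal of 8 T cell genes in each array (points), with the mean and 1 SD of each group (lines) and the upper end of the dim range (dashed). Cd3e, Cd3g, Cd2, Cd4 and Il7r are far above the controls in the 4 older Cre+ kidneys, with Cd3g between 6.0 and 6.72, while Cd8a separates by less.

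Promoters are shown for Cd79a, Cd3g, Cd3e and Il7r, the 4 genes with a RefSeq promoter window among the 6 whose Cre effect was larger at 7 than at 4 months. Each is the 250 bases before the annotated start (RefSeq, GRCm38.p6), read in the direction of the gene, with the Ets core AGGAAG or its reverse complement CTTCCT in capitals.
Cd79a, chr7:24897247-24897496, plus strand: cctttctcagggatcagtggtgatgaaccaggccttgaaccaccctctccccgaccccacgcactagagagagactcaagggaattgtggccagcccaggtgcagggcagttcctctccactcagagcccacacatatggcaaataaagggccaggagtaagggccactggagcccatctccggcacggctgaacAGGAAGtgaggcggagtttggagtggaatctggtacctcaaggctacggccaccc
Cd3g, chr9:44980432-44980681, minus strand: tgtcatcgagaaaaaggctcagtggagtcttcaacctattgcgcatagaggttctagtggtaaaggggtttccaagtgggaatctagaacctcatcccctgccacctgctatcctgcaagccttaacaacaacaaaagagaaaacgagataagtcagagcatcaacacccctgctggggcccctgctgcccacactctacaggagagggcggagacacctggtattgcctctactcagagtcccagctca
Cd3e, chr9:45009612-45009861, minus strand: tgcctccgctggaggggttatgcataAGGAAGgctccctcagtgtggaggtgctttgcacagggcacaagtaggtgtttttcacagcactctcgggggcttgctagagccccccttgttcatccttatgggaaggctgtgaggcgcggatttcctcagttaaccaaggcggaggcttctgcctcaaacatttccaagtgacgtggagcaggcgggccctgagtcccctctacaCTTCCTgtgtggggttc
Il7r, chr15:9529877-9530126, minus strand: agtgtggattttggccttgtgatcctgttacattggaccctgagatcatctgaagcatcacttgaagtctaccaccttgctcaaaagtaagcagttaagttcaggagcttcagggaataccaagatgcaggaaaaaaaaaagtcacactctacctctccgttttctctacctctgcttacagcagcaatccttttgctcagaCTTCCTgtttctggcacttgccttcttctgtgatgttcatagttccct

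Ets proteins are a family of transcription factors, several of which act in lymphocytes. The core began 55 bases before the start in Cd79a, 48 in Il7r, and 224 and 17 in Cd3e, and these letters were not in the window of Cd3g. Over the 24 windows that the RefSeq table holds for 20 of the 33 genes, 15 had it on either strand, against 29.5% of all 32851 windows. The Runx core TGTGGT was in 6 of the 24 and in 14.0% of all windows, and the E-box CACGTG, a site type of TFE3 and its relatives, was in 1 of the 24 (Lat) and in 6.02% of all. The octamer ATGCAAAT of immunoglobulin promoters was in none of the 24 and in 1.6% of all windows. The Ets and Runx letters were added after the values had been seen. No binding was measured, and a match describes letters only.

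The 4 cytotoxic granule genes were not called at either age by limma or by the plain linear model, and 0 of them had an unadjusted p under 0.05. In limma 2.73% of all genes were called higher at 4 months and 11.7% at 7 months. An unadjusted p under 0.05 was found for 16.3% and 32.9% of all genes. Prf1, which encodes perforin, was at 4.46, 4.53 and 3.91 in 7-month Cre- and 4.25, 4.53, 4.03 and 4.25 in Cre+ kidneys. These groups overlapped, with a difference of -0.03 (SE 0.16, adjusted p = 0.92). Gzmb, granzyme B, was at 2.71, 3.05 and 3.09 in 7-month Cre- and 2.84, 3.02, 3.00 and 2.79 in Cre+ kidneys, and differed by -0.03 (SE 0.15, adjusted p = 0.91). Gzma, granzyme A, also differed by -0.03 (SE 0.16). Both granzyme genes were within the dim range in all groups, so these arrays may not resolve a change in them. Nkg7, a granule membrane protein, was at 5.19, 5.48 and 4.91 in 7-month Cre- and 5.32, 5.30, 5.37 and 5.99 in Cre+ kidneys, a difference of 0.30 (SE 0.17, adjusted p = 0.23) for which replicate 4 stood apart from the other Cre+ mice.

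Of the 7 B cell genes, 4 rose at 7 months, where 11.7% of all genes were higher. At 4 months none was called by limma or by the plain linear model, against 2.73% of all genes higher in limma. At that age 1 of the 7 (Cd79b) had an unadjusted p under 0.05 in limma, as did 16.3% of all genes. Ms4a1, which encodes the B cell surface protein CD20, was at 3.77, 3.77, 3.66 and 3.65 in 4-month Cre- and 3.46, 3.96, 3.94 and 3.94 in Cre+ kidneys. At 7 months it was at 3.21, 3.25 and 3.96 in Cre- and 4.25, 5.33, 5.05 and 5.53 in Cre+ kidneys. The older Cre+ mice were above all others, and replicate 1 was the lowest of them. The change was 0.11 (SE 0.22, adjusted p = 0.87) at 4 months and 1.56 (SE 0.24, 2.96-fold, adjusted p = 0.00014) at 7 months.

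The receptor chains CD79A and CD79B followed. Cd79a was at 4.02, 4.01, 4.16 and 4.17 in 4-month Cre- and 3.91, 4.49, 4.35 and 4.23 in Cre+ kidneys, and at 4.09, 4.18 and 3.96 in 7-month Cre- and 4.62, 5.45, 5.78 and 5.77 in Cre+ kidneys. Replicate 1 was again the lowest of the older Cre+ mice, though above every control, and the change at 7 months was 1.33 (SE 0.21, 2.52-fold, adjusted p = 0.00019). Cd79b was at 4.42, 4.59 and 4.42 in 7-month Cre- and 4.66, 5.20, 5.28 and 5.54 in Cre+ kidneys, a change of 0.69 (SE 0.17, adjusted p = 0.0054), and at 4 months its Cre+ arrays were also above the Cre- arrays, by 0.35 (SE 0.15, adjusted p = 0.27). Cr2, the complement receptor of mature B cells and follicular dendritic cells, was at 3.73, 3.40 and 3.75 in 7-month Cre- and 3.88, 4.06, 4.30 and 4.57 in Cre+ kidneys. It rose by 0.57 (SE 0.19, adjusted p = 0.037), a call lost without 7-month Cre- replicate 1 or 2 or Cre+ replicate 3 or 4, with an adjusted p up to 0.17. That call was also lost with the plain linear model and in arrays of high Y-linked signal.

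Mzb1, an endoplasmic reticulum protein of B and plasma cells that helps immunoglobulin assembly, was at 5.16, 5.23 and 5.28 in 7-month Cre- and 5.07, 6.02, 5.55 and 6.37 in Cre+ kidneys. Cre+ replicate 1 was below the controls and the other 3 were above them, and the change of 0.53 (SE 0.21, adjusted p = 0.081) was not called; without that mouse it was 0.76 (adjusted p = 0.0033). Blk, a kinase of the B cell receptor pathway, differed by 0.00 (SE 0.18) at 7 months, and Pax5, the transcription factor that maintains B cell identity, by 0.13 (SE 0.15) within the dim range.

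The kappa variable segments encode the part of the antibody light chain that binds antigen. Igkv4-72 was at 4.79, 5.44, 5.56 and 6.58 in 4-month Cre- and 5.53, 6.07, 7.63 and 6.32 in Cre+ kidneys, and at 7.61, 7.70 and 5.91 in 7-month Cre- and 7.14, 9.59, 9.25 and 10.83 in Cre+ kidneys. Controls themselves ran from 4.79 to 7.70, and the 7-month groups overlapped through Cre+ replicate 1. The change at 7 months was 2.13 (SE 0.68, 4.38-fold, adjusted p = 0.031), a call lost without 7-month Cre- replicate 3 or Cre+ replicate 2, 3 or 4, with an adjusted p up to 0.16. That call was also lost with the plain linear model, the robust variance with trend and weights per array. So it was in the fit of the 2 groups compared and in arrays of high Y-linked signal. Igkv15-103 was at 6.74, 6.25 and 5.75 in 7-month Cre- and 7.11, 8.96, 8.48 and 9.85 in Cre+ kidneys, with no overlap and a change of 2.35 (SE 0.57, 5.11-fold, adjusted p = 0.0059).

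Variable segments resemble each other in sequence, so a probe set may read several of them. Over all 20 immunoglobulin segments measured, 11 were called higher at 7 months, against 11.7% of all genes, and none at 4 months or lower. Their median log2 change was 1.66 at 7 months and 0.71 at 4 months. At 7 months 17 of the 20 had an unadjusted p under 0.05, against 32.9% of all genes, and at 4 months 4 of the 20, against 16.3%. The largest were Igkv8-30 (7.99-fold, adjusted p = 0.0078), Ighv1-53 (6.34-fold, adjusted p = 0.0018) and Iglv1 (5.54-fold, adjusted p = 0.0012). Ighm, the heavy chain of IgM, rose 4.55-fold (adjusted p = 0.0025), from 9.71, 10.51 and 9.41 in 7-month Cre- to 11.08, 12.21, 12.03 and 12.93 in Cre+ kidneys.

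**Figure D3:**
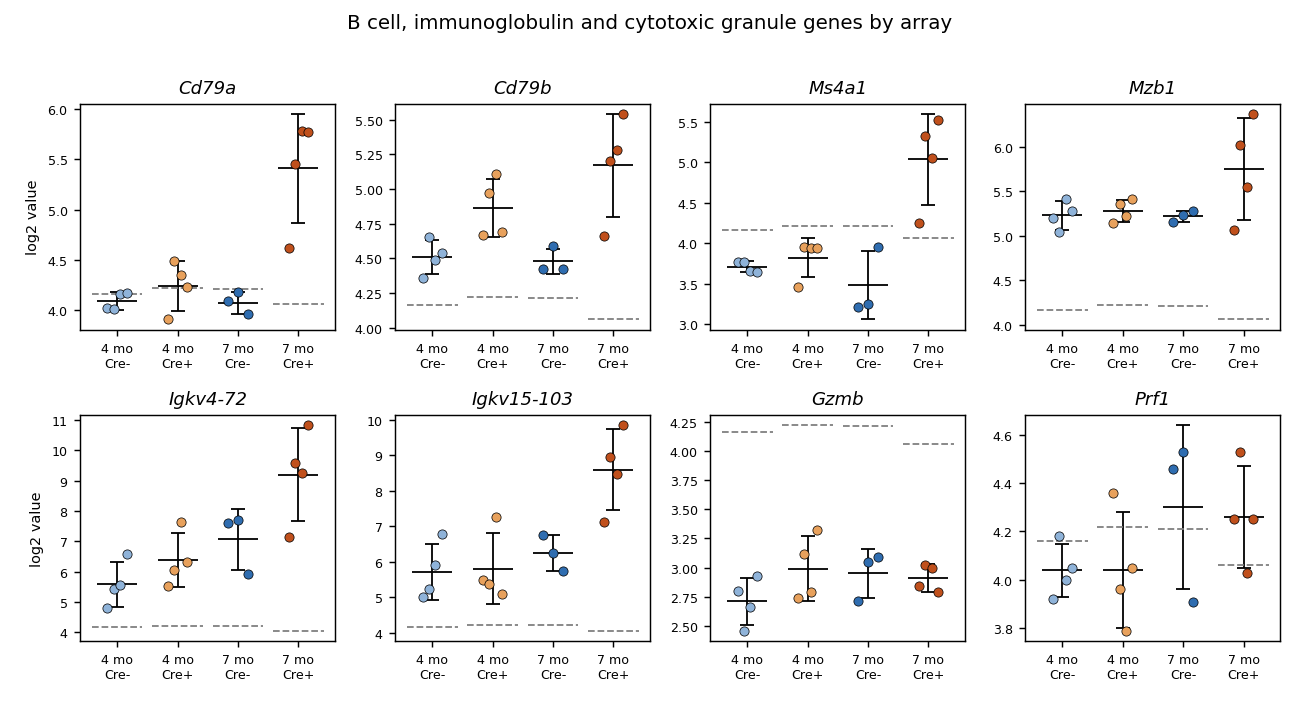
Log2 signal of 4 B cell genes, the 2 kappa segments and the granule genes Gzmb and Prf1 in each array (points), with group mean and 1 SD (lines) and the upper end of the dim range (dashed). In the 7-month Cre+ group the lowest point is replicate 1 in Cd79a, Ms4a1, Mzb1 and both segments, for example 4.62 in Cd79a and 7.14 in Igkv4-72, and Gzmb stays below the dashed line in all 15 arrays.

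The older Cre+ mice differed among themselves in the level of these genes. As a mean difference from the 7 Cre- arrays, the 18 T cell genes were at 0.58, 0.68, 0.77 and 0.99 in replicates 1 to 4, the 7 B cell genes at 0.17, 0.72, 0.74 and 0.96, and the 2 segments at 1.04, 3.19, 2.78 and 4.25. The segments also varied between mice of the other groups, from -1.19 to 0.59 in 4-month Cre-, -0.59 to 1.36 in 4-month Cre+ and -0.26 to 1.09 in 7-month Cre- kidneys. Whether the spread differs between these sets of genes was not tested. Replicate 1 was the lowest of its group in 6 of 7 B cell genes, both segments and 7 of 18 T cell genes, and replicate 4 was the highest in 20 of the 31 genes. Y-linked signal was high in replicates 1 and 2 of these mice (7.80 and 7.45) and low in replicates 3 and 4 (2.71 and 2.64). Its part in this order was not tested. Among 4-month Cre+ mice, replicate 1 was the lowest in 18 of the 31, with a mean of 0.12 over the T cell genes against 0.34 to 0.44 in the other 3. These are descriptions of single mice, and Cxcl13, the chemokine that draws B cells, had the same lowest and highest mouse at 7 months, with 7.04, 7.93, 7.98 and 8.98 in Cre+ against 6.52, 6.59 and 5.55 in Cre- kidneys. The mean signal of 5 adipocyte markers ran in the same order of mice, at 4.73, 5.35, 5.63 and 6.32 in replicates 1 to 4. Retn, the resistin gene and 1 of the 5, was at 4.02, 6.75, 7.63 and 8.54. The 6 markers of lymph node stroma and venules, which include Cxcl13 itself, had means of 4.58, 4.90, 5.03 and 5.14. The macrophage and monocyte means, at 6.97, 6.79, 6.70 and 6.79, were highest in replicate 1, and the pan-leukocyte means lay between 6.73 and 6.80. In 4-month Cre+ mice the adipocyte means were 5.48, 4.98, 6.35 and 6.52, lowest in replicate 2. In 7-month Cre- kidneys the adipocyte mean was 5.86 to 6.58. The part of fat or lymph node tissue in the differences between these mice was not tested.

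**Figure D4:**
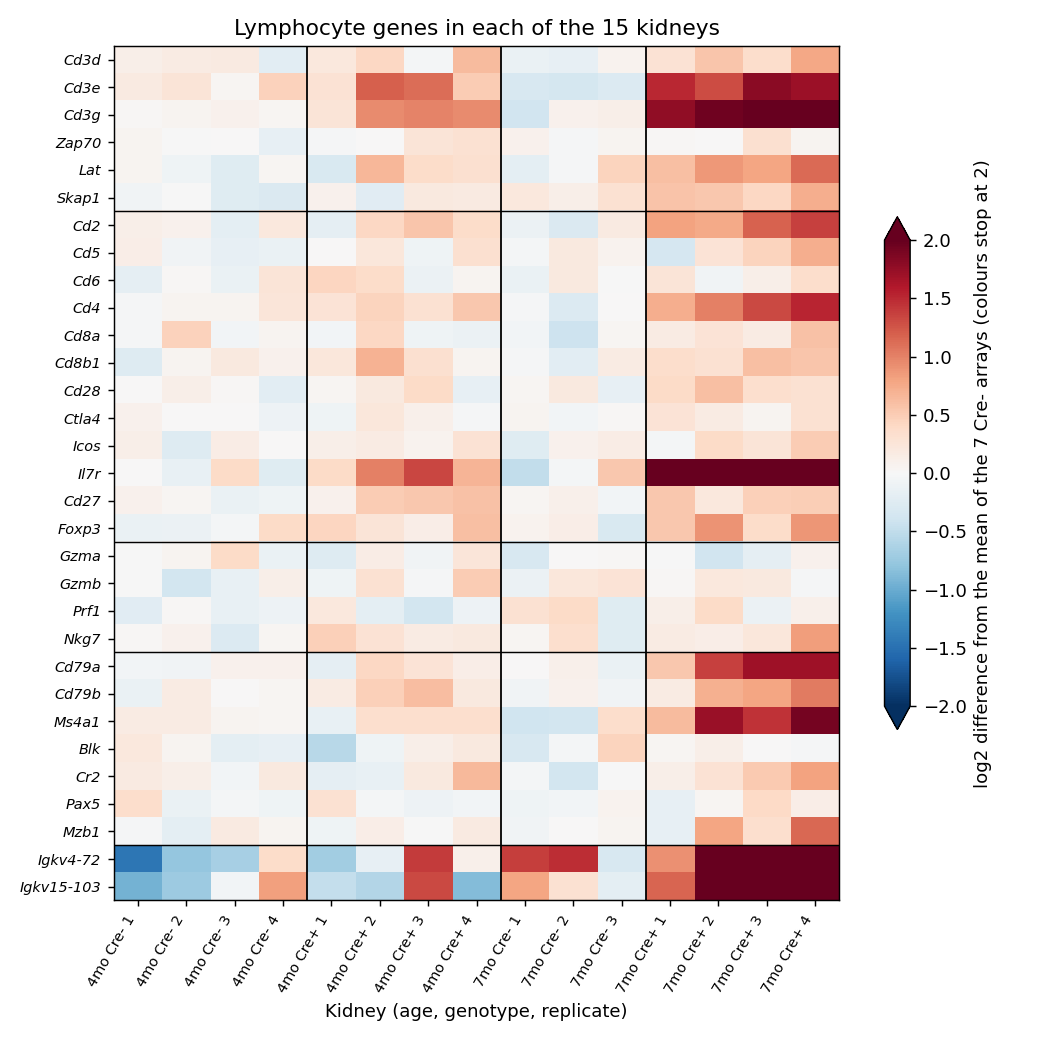
Log2 difference of each gene (rows) in each kidney (columns) from the mean of the 7 Cre- arrays, with colours stopping at 2. The 4 right-hand columns, the 7-month Cre+ mice, are red in the CD3, Cd2, Cd4 and Il7r rows, and the Cd79a, Cd79b, Ms4a1 and segment rows are paler in the first of them.

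Tested as a difference of the Cre effects between ages, 6 of the 31 genes had a larger effect at 7 than at 4 months and none a smaller one, against 0.96% of all genes larger and 1.18% smaller. The share of larger effects among all genes called was 44.8% as deposited, 56.5% after quantile normalisation and 54.0% after median centring, and the 6 genes kept their calls under both rescalings. They were Cd3g (1.42, SE 0.25, adjusted p = 0.0079), Cd3e (1.35, SE 0.26, adjusted p = 0.011), Cd4 (0.93, SE 0.21, adjusted p = 0.029), Ms4a1 (1.45, SE 0.33, adjusted p = 0.03), Il7r (1.70, SE 0.40, adjusted p = 0.034) and Cd79a (1.18, SE 0.29, adjusted p = 0.043). The calls of Cd3g and Cd3e were kept in all 15 fits without 1 array. That of Cd3g was lost in arrays of high Y-linked signal, and that of Cd3e in either kind of array taken alone and with the plain linear model, with adjusted p-values up to 0.13 and 0.27. Those of Cd4, Il7r, Ms4a1 and Cd79a were lost in 6, 9, 9 and 13 of the 15 fits without 1 array, with adjusted p-values up to 0.086, 0.084, 0.086 and 0.089. All 4 were also lost with the plain linear model and in arrays of high Y-linked signal, and that of Cd4 in arrays of low Y-linked signal too. Over all alternatives the adjusted p was up to 0.16 for Il7r, 0.38 for Ms4a1 and 0.44 for Cd79a. The counts fell to 2 without Cre- replicate 2 or Cre+ replicate 1 of the 4-month mice, or without Cre- replicate 2 or Cre+ replicate 3 of the 7-month mice. They fell to 3 without 4-month Cre- replicate 1 or 4, 7-month Cre- replicate 1 or 7-month Cre+ replicate 4. Over all genes, those with a larger effect fell from 213 to between 108 and 167 in these fits.

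Within Cre+ kidneys, 11 of the 31 were higher at 7 than at 4 months and none lower, against 4.12% of all genes higher and 6.71% lower. The share of higher calls over all genes was 38.1% as deposited, 54.5% after quantile normalisation and 46.1% after median centring, and all 11 calls were kept under both rescalings. The T cell genes among them were Cd3e, Cd3g, Lat, Skap1, Cd2, Cd4 and Il7r, the others Cd79a, Ms4a1 and both kappa segments. Il7r rose by 1.70 (SE 0.27, 3.26-fold, adjusted p = 0.00068), Cd3g by 1.31 (SE 0.17, 2.48-fold, adjusted p = 0.00014), Ms4a1 by 1.22 (SE 0.22, adjusted p = 0.0021) and Cd79a by 1.16 (SE 0.20, adjusted p = 0.0012). Igkv4-72 rose by 2.82 (SE 0.63, adjusted p = 0.0088), although 1 older array lay below the highest younger one. Of all 20 segments, 12 were higher at 7 months in Cre+ kidneys, with a median change of 1.74. In Cre- kidneys the median change with age was 0.75, with none called and 5 at an unadjusted p under 0.05 (2.71% of all genes). The call of Lat (0.59, adjusted p = 0.046) was lost in 11 of 15 fits without 1 array, with an adjusted p up to 0.13, and was kept without 4-month Cre+ replicate 2, 7-month Cre- replicate 1 or 3 or 7-month Cre+ replicate 1. Within Cre- kidneys none of the 31 was called between the ages by limma or by the plain linear model; 0.00451% of all genes (1 gene) were higher. An unadjusted p under 0.05 in limma was found for 3 of the 31 and for 2.71% of all genes. These were Skap1, 0.36 higher at 7 months with no overlap, Igkv4-72, 1.48 higher with overlap, and Cd3e, with a change of -0.55 and no overlap, each at an adjusted p of 1.0. The difference of Cre effects given for Cd3e takes in this lower level in the older controls. Comparisons that share a group of arrays are not independent of each other.

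Further genes of the same cells, from lists that overlap none of the 31, gave the following counts at 7 months, where 11.7% of all genes were higher and 10.8% lower. Of 27 other T cell genes 13 were higher and 1 was lower. The largest rises were in Slamf6 (2.64-fold), the activation marker Cd69 (2.35-fold), the transcription factor gene Ikzf3 (2.23-fold) and Il2ra, the interleukin-2 receptor alpha chain of activated and regulatory T cells (2.14-fold). The gene that fell was Bcl11b, a T cell transcription factor also made in other tissues, by 0.39 (SE 0.13, adjusted p = 0.046). Themis, which tunes receptor signals in T cells, was the 1 gene of this list called at 4 months (1.45-fold, adjusted p = 0.048), from a signal within the dim range. At that age 2.73% of all genes were higher.

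Of 16 other cytotoxic and natural killer genes, 5 were higher at 7 months and 2 at 4 months, against 11.7% and 2.73% of all genes. The chemokine gene Ccl5, made by T and natural killer cells, rose 1.76-fold (adjusted p = 0.036) at 4 months and 2.46-fold (adjusted p = 0.00035) at 7 months. Tyrobp (2.81-fold), an adaptor that macrophages express as well, the protease gene Ctsw (1.66-fold) and the receptor gene Klrg1 (1.41-fold) rose at 7 months. Of 18 other B cell genes, none was called at 4 months, where 6 had an unadjusted p under 0.05 (16.3% of all genes). At 7 months 9 of the 18 were higher, against 11.7% of all genes. Among them were the adaptor gene Bank1 (2.47-fold), lymphotoxin beta (Ltb, 2.36-fold), Cd37 (2.20-fold) and Pou2af1, a coactivator of immunoglobulin genes (2.17-fold). Whether leukocytes other than B cells carried part of these rises was not tested.

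Of 9 plasma cell genes 5 were higher at 7 months, against 11.7% of all genes. Besides Ighm they included Irf4 (1.83-fold), the transcription factor that drives plasma cell formation, and Sdc1 (1.5-fold), which epithelium also makes. Fkbp11, a foldase of secretory cells, was higher by 3.74-fold at 4 months (adjusted p = 9.3e-06) and by 2.55-fold at 7 months (adjusted p = 0.00013). It was the 1 plasma cell gene called at 4 months, where 2.73% of all genes were higher, while no immunoglobulin segment was called there.

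Genes of some other cells also differed between Cre+ and Cre- kidneys. Of all genes, 2.73% were higher and 0.803% lower at 4 months, and 11.7% were higher and 10.8% lower at 7 months. Of 11 pan-leukocyte genes 5 were higher at 4 months and 10 at 7 months, among them Ptprc (CD45), at 1.82- and 3.47-fold, and Cd53, at 1.87- and 4.27-fold. Of 17 macrophage and monocyte markers 5 and 15 were higher, and their mean signal was 5.27 to 5.64 in 7-month Cre- and 6.70 to 6.97 in Cre+ kidneys. Of 12 proximal tubule markers 3 were lower at 4 months and all 12 at 7 months, with a mean signal of 10.91 to 10.96 in 7-month Cre- and 9.31 to 9.85 in Cre+ kidneys. Of 7 dendritic cell markers 1 was higher at 4 months and 2 were higher at 7 months, and of 10 neutrophil and mast cell markers none was higher and 1, Ngp, was lower at 7 months. Of 5 adipocyte markers none was called at 4 months and Lep was lower at 7 months. The part of these cells in the lymphocyte gene differences was not tested.

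Lymph node and other lymphoid tissue carries lymphocyte genes too, and its part in these results was not tested. Of 6 measured markers of lymph node stroma and high endothelial venules, Cxcl13 was higher at 7 months by 1.76 (SE 0.35, 3.39-fold, adjusted p = 0.0011) and Glycam1, a ligand of lymphocyte homing made by these venules, was lower by 0.48 (adjusted p = 0.019) from a signal within the dim range. The mean signal of the 6 was 4.76 to 4.90 in 7-month Cre- and 4.58 to 5.14 in Cre+ kidneys. At 4 months the change of Cxcl13 was -0.42 (SE 0.32, adjusted p = 0.57), and the effects at the 2 ages differed by 2.18 (SE 0.47, adjusted p = 0.023).

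Since Y-linked signal was high in some mice and low in others of every group, the 7-month comparison was also made within each kind. Cd3e, Cd3g, Cd2, Cd4, Il7r, Cd79a and Ms4a1 were called higher in both. Il7r changed by 1.85 (SE 0.24) where it was high and 3.5 (SE 0.29) where it was low, Cd3g by 1.77 (SE 0.20) and 2.70 (SE 0.18), and Ms4a1 by 1.18 (SE 0.32) and 2.08 (SE 0.21). The low kind has a single 7-month Cre- mouse, whose spread is taken to be that of the other groups, and the difference between the kinds was not tested. These 7 genes kept their 7-month call under every alternative in which they were tested, where Cd2 was too dim for the filter on dim genes.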

How the data were processed

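Total RNA of flash-frozen kidneys was hybridised to Affymetrix Mouse Gene 2.0 ST arrays, per the labels' protocols. The authors deposited log2 values made with RMA in Partek 6.6, per the submitters' processing notes; that the scale is log2 was read from the values, which run from 1.04 to 13.12. RMA normalises between arrays, which can narrow a shift common to most genes. Of 41345 entries 23521 had 1 symbol, and the brightest entry of each symbol gave 22180 genes. Arrays have no read depth, so the number of arrays limits the precision. No source used here names the genome build behind the array annotation.

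Groups came from the titles. With limma 3.58.1 in R 4.3.3, all 15 arrays were fitted together as 4 group means, two-sided, with Benjamini-Hochberg adjustment over all genes, a threshold of 0.05 and no filter on dim genes; errors of changes are its standard errors. The submitters named an analysis of variance, for which the plain linear model is an alternative. Each array is 1 mouse, per the design text, so the spread tested is that between animals. The procedure was tested on simulated data. Tables were handled with Python 3.11.15 and pandas 2.3.3.

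The genes and all lists were chosen with earlier results of these data known. Named genes are all 33 members and, of each other list, up to 4 per direction past the threshold with no overlap between groups, or up to 2 as values where none passed; up to 3 immunoglobulin segments were named likewise. Fold values are given with the direction in words. The alternatives were a filter keeping genes above 4.9 in at least 3 arrays, quantile normalisation, median centring, the plain linear model, a robust variance with trend, fits of the 2 groups compared, weights per array, a block for replicate number, Y-linked signal as a covariate, arrays of high or low Y-linked signal only, the mean of a gene's entries, and each array left out. Promoter letters were searched on both strands. Protein sequences were not used here.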

Additional observations from a re-analysis of the deposited data

Results flagged for a closer look

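The Cre effect differed between the ages, by a test of the difference itself, for 6 genes. It was larger at 7 months by 1.42 (SE 0.25, adjusted p = 0.0079) for Cd3g, 1.35 (SE 0.26, adjusted p = 0.011) for Cd3e, 0.93 (SE 0.21, adjusted p = 0.029) for Cd4, 1.70 (SE 0.40, adjusted p = 0.034) for Il7r, 1.45 (SE 0.33, adjusted p = 0.03) for Ms4a1 and 1.18 (SE 0.29, adjusted p = 0.043) for Cd79a.

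In 7 groups of 4 arrays a single mouse stood apart, by a gap that took 0.831 to 0.965 of the group's range. The 4-month Cre+ replicate 1 did so in 3 genes, low in Cd3g (4.48) and Ms4a1 (3.46) and high in Pax5 (4.05). The other cases were Cd8a in 4-month Cre+ replicate 2 (4.79, high), Foxp3 in 4-month Cre- replicate 4 (4.49, high), Nkg7 in 4-month Cre- replicate 3 (4.87, low) and Nkg7 in 7-month Cre+ replicate 4 (5.99, high). These are 7.53% of the 93 groups checked, and chance gives about 5%.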

How the results depend on the processing

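The alternatives are given for the 31 genes, whose called changes kept their direction in each; the calls of the other genes named were not checked under them. At 4 months the count of 2 fell to 1 with the filter on dim genes, quantile normalisation or median centring. It fell to 0 with the plain linear model or arrays of high Y-linked signal only, and ranged from 0 to 3 with 1 array left out. The 606 of 22180 genes called higher numbered 672 of 12296 with the filter, 597 with quantile normalisation and 497 with median centring. They numbered 407 with the plain linear model, 272 in arrays of high Y-linked signal and 370 to 904 with 1 array left out. At 7 months the count of 17 fell to 11 with the filter, under which 16 of the 31 genes were tested. It fell to 9 in arrays of high Y-linked signal, where fewer mice entered, and ranged from 12 to 18 with 1 array left out. Over all genes, 2597 were higher in the main fit and 2548 of 12296 with the filter. In arrays of high Y-linked signal 1537 were higher, and with 1 array left out 1846 to 2826. The calls lost in arrays of high Y-linked signal were those of Cd27, Cd3d, Cd79b, Cd8b1, Cr2, Igkv4-72, Lat and Skap1. Arrays of low Y-linked signal hold a single 7-month Cre- mouse, so their count is not given. The 6 differences of the effects fell to 1 with the plain linear model and to 0 in arrays of high Y-linked signal, and ranged from 2 to 7 with 1 array left out. Over all genes, 213 had a larger effect at 7 months in the main fit and 90 with the plain linear model. In arrays of high Y-linked signal 40 did, and with 1 array left out 108 to 228. The 11 rises with age in Cre+ kidneys fell to 3 in arrays of high Y-linked signal, where the rises over all genes fell from 914 to 454. Besides fewer genes or mice, the causes were not tested. Replicate numbers did not pair the mice, with correlations of same-numbered Cre- and Cre+ deviations from -0.278 to 0.222. With the replicate number as a block, 2, 16, 6 and 11 of the 31 genes were called in these comparisons. Over all genes, 614, 2398, 185 and 909 were then called higher or larger. Under the block Cd27 lost its call at 4 months (adjusted p = 0.07) and Il7r gained one (0.85, adjusted p = 0.038), and at 7 months Cd27 (adjusted p = 0.067) and Skap1 (adjusted p = 0.088) lost theirs and Cd28 gained one (0.44, adjusted p = 0.014). Il7r was also called at 4 months in the fit of the 2 groups compared and in arrays of low Y-linked signal. Dim signals limit what can be seen of Ctla4, Cd27, Gzma, Gzmb and Pax5, which lay within the dim range in all 4 groups.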
